A study of Mus musculus with 13 samples.

Results

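Neutrophil-lineage cells were examined in a single-cell RNA-Seq library of F4/80+ cells from E13.5 mouse fetal liver (FL), in which 228 of 3093 kept cells fell into this class (7.37%, exact 95% interval 6.48 to 8.35%). They were chosen by their own values. A cell was taken when S100a8 and S100a9 together held at least 50 of every 10000 counts of the cell and C1qa, C1qb and C1qc together held less than 10. Levels below are counts per 10000 counts of the cell, or of all 228 cells pooled. The library was made from EKLF+/+ (wild-type) littermate embryos that were pooled and selected for F4/80 with magnetic beads, so it is 1 sample and gives no test between cells. The 12 bulk RNA-Seq libraries of FACS-sorted F4/80+ cells form 4 groups of 3, all at E13.5, with EKLF-/- set against EKLF+/+ and EKLF/GFP+ set against EKLF/GFP-. EKLF, encoded by Klf1, is an erythroid transcription factor, and EKLF-/- embryos lack it in every cell. EKLF/GFP+ and EKLF/GFP- cells come from wild-type embryos with a GFP reporter driven by 1 copy of the EKLF promoter, and were separated by GFP. All samples carry the strain label C57BL/6, while the study's key resources name another background for the EKLF-null line.

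Neutrophils arise in the FL from granulocyte-monocyte progenitors and fill their granules in a fixed order. Primary granules, with myeloperoxidase and serine proteases, are made by promyelocytes. Secondary granules, with lactoferrin and cathelicidin, are made by myelocytes, and gelatinase granules come last, when division has stopped. The C/EBP factors (C/EBPα for primary, C/EBPε for secondary granules), PU.1 and GFI1 are known to drive this program.

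The promoters of granule genes are shown because the sums of the primary and of the secondary granule genes moved in opposite directions over the cells, as given further on. The sequences are the 200 bases before the RefSeq start of each gene in GRCm38.p6, 5′ to 3′ on the strand of the gene. In the first pair, of secondary granule genes, capitals mark TTNNGNAA on either strand, a motif of the C/EBP type. Ngp lies at chr9:110419608-110419807, plus strand, and Ltf at chr9:111019092-111019291, plus strand.
Ngp: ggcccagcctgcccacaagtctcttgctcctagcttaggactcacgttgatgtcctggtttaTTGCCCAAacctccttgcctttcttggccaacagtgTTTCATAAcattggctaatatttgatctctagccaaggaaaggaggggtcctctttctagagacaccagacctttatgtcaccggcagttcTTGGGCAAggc
Ltf: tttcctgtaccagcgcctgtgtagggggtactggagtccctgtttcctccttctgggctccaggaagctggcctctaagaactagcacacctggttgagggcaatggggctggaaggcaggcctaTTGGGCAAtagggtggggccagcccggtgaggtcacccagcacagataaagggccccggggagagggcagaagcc
The Ngp promoter held the motif with its first base 138, 102 and 11 bases before the start, and the Ltf promoter 75 bases before it. In windows from 250 bases before to 50 after the start, 7 of 9 secondary granule genes with a window held it (77.8%), against 44.1% of 27025 genes. It was as frequent for receptors (13 of 16, 81.2%) and was found for 28 of 43 leading genes (65.1%), so it was not particular to secondary granules. Camp, the most abundant of these genes, held no copy in its window, and the pair shown was picked for its matches. This is a match of letters and shows no bound site.

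In the primary granule pair, capitals mark GAGGAAG on either strand, a motif of the PU.1 type. Both genes lie in one protease cluster of chromosome 10, Elane at chr10:79886112-79886311, plus strand, and Prtn3 at chr10:79879467-79879666, plus strand.
Elane: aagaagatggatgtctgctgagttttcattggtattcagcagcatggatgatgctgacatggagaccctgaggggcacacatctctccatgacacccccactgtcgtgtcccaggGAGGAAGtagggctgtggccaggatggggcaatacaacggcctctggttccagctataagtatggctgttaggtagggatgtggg
Prtn3: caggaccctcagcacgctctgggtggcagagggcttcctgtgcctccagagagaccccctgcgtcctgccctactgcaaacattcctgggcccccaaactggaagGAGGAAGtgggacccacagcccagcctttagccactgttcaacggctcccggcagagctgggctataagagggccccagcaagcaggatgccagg
The motif began 85 bases before the start of Elane and 95 before that of Prtn3. It was found for 6 of 8 primary granule genes with a window (75%), 3 of 9 secondary granule genes (33.3%) and 15.4% of all genes. It was also found for 4 of 7 stefins (57.1%), 7 of 16 receptors (43.8%) and 18 of 43 leading genes (41.9%). It was thus not particular to primary granules. Mpo and Ctsg held no copy in the 200 bases before the start, and the pair shown is among those with a match. TTNNGNAA was found for 3 of the 8 primary granule genes (37.5%). None of the 4 sequences above holds both motifs. No motif was tested, and the genes were chosen with their levels known.

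The stefins, inhibitors of cysteine proteases that neutrophils hold in the cytosol, were the other abundant group, and many of their genes are alike and lie together on chromosome 16. The promoters of 4 of them are shown because the likeness limits how far one member can be told from the next. Capitals again mark TTNNGNAA, which was found for 5 of 7 stefins with a window (71.4%), and the 4 shown are among those with a match. It begins 109 bases before the start of Stfa1, and a copy of GAGGAAG there, not in capitals, begins 179 bases before it. Stfa1 is at chr16:36276948-36277147, plus strand, Cstdc5 at chr16:36367571-36367770, minus strand, Stfa2 at chr16:36408364-36408563, minus strand, and Stfa2l1 at chr16:36156611-36156810, plus strand.
Stfa1: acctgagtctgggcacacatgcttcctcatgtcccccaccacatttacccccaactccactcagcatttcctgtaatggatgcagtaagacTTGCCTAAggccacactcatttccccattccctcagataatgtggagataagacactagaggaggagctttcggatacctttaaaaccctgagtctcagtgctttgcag
Cstdc5: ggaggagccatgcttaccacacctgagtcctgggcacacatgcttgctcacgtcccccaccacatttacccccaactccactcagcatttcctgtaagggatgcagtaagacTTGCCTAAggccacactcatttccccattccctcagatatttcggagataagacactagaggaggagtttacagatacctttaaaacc
Stfa2: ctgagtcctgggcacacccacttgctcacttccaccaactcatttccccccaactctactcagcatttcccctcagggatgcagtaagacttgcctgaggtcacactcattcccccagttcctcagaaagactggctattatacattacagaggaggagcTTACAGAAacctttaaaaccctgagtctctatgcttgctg
Stfa2l1: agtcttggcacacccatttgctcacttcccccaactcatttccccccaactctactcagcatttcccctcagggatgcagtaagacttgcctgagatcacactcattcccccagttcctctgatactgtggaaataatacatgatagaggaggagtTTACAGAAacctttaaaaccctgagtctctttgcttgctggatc
Stfa2 and Stfa2l1 were identical at 90.5% of aligned promoter bases, and Stfa1 and Cstdc5 at 83.8%, while Cstdc4 and Cstdc5, the least alike of the stefins compared, were at 66.4%. The promoters of Camp and Ngp, of Elane and Prtn3, and of S100a8 and S100a9, related genes too, were at 41.6, 42.7 and 43.3%. In the transcripts, 52.8% of the 31-base words of Cstdc5 also occurred in another stefin, and the share was 49.9% for Stfa1, 47.4% for Cstdc4, 29.3% for Stfa2l1 and 26.1% for Stfa2. It was 0 for Stfa3, S100a8, S100a9, Camp, Ngp, Ltf, Lcn2, Elane and Prtn3. Levels of single stefins other than Stfa3 are therefore uncertain, and their sum is more secure.

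The summed level of S100a8 and S100a9, on which the cells were selected, ran from 50.5 to 2439 per 10000, with quartiles of 321, 715 and 1406. In the other 2865 kept cells the median was 1.74 and the 99th percentile 24.9. The 3 cells just inside the limit were at 50.5, 50.7 and 54.3, and the 3 just outside at 49, 48 and 47.2. For the C1q sum the nearest members were at 9.3 and 9.12, and the nearest excluded cells at 10.1 and 10.7. Another 8 cells met the S100 limit and had C1q at or above 10. Only 18 cells lay between 20 and 50, 18 between 50 and 100, and 100 between 1000 and 3000, so few cells stood near the limit. Cells with no S100 or C1q count stand at 0.1 on that axis in the plot of the rule.

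**Figure D1:**
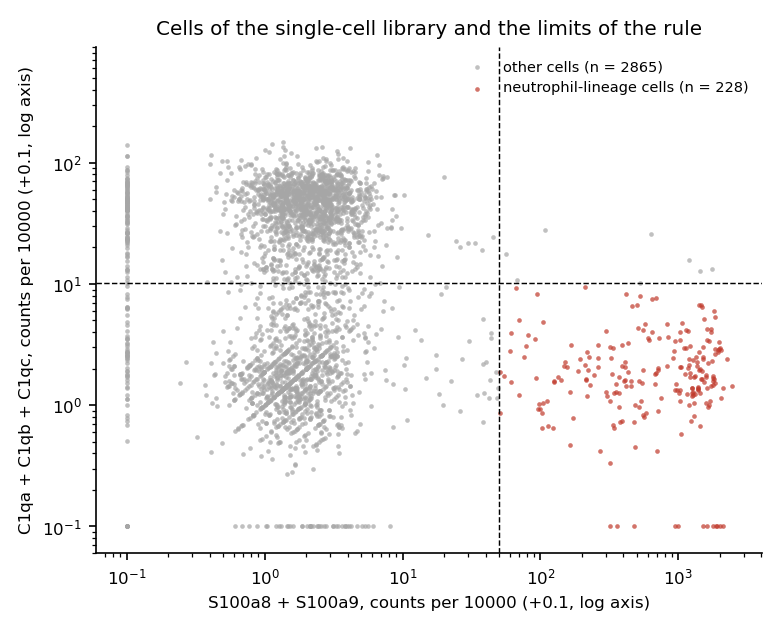
Each point is 1 of 3093 cells, with S100a8 + S100a9 on the x axis and C1qa + C1qb + C1qc on the y axis, both in counts per 10000 plus 0.1 on log axes, and dashed lines at the limits of the rule. The 228 neutrophil-lineage cells (red) reach from 50.5 to 2439 on the x axis, where the other 2865 cells (grey) have a median of 1.74.

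Of the 5 markers given for the class, S100a8 and S100a9 were part of the rule. Stfa1 had a count in 100% of the 228 cells, and Ngp, a granule protein of the cathelin family, in 66.7% (exact 95% interval 60.1 to 72.8%). Ly6g, the surface antigen used to sort mature mouse neutrophils, had only 121 counts in 12.3% of cells (8.32 to 17.3%). A count alone is weak evidence, since after thinning to 5000 counts Stfa1 had one in 99.6% of these cells but also in 65.6% of the Mpo-positive and 26.1% of the C1q-high cells of the library, classes set out further on. For Ngp the shares were 54.2, 3.12 and 4.69%. All intervals here cover counting error only. The cells had a median of 18399 counts (4199 to 68002) and 3994 detected genes (1678 to 7144), and the other kept cells a median of 18624 counts.

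Of 582 genes at 2 or more per 10000, 50 led by the ratio of the level in the neutrophil-lineage cells to that in all other cells, and 31 of these 50 were on the lists of neutrophil genes. For 16 the ratio, with 0.01 added to both levels, was above 100. The first were Camp (210), Stfa2l1 (203), Ngp (198), Stfa2 (196) and Cstdc5 (191). The lists and the cells were chosen on these values, so the ratios describe the class. In GRCm38, 7 of the 50 lie on chromosome 16 between 35 and 37 Mb. Camp (9:109847379-109849617), Ngp (9:110419747-110423012) and Ltf (9:111019271-111042767) lie in one region of chromosome 9, not side by side. S100a8 (3:90668978-90670035) and S100a9 (3:90692632-90695721) sit together on chromosome 3. These spans are those of GENCODE, whose starts can differ from the RefSeq starts of the promoters, as for Ngp.

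Calprotectin and the stefins made up a large share of all counts. Pooled over the cells, S100a8 was at 369 per 10000 (exact Poisson 95% interval 367 to 371) and S100a9 at 331 (330 to 333), subunits of calprotectin, which binds calcium, zinc and manganese. The stefin sum was 564 per 10000, with a median of 629 per cell and quartiles of 227 and 1053, and 226 of the 228 cells were at 10 or more. Stfa1 stood at 221 (220 to 222), Cstdc5 at 208 (206 to 209), Cstdc4 at 76.7 (75.9 to 77.5) and Stfa3 at 29.4 (28.9 to 29.8). These are 3′ molecule counts, which do not grow with transcript length. Csta1 had no count in any cell, which, taken as 3 counts in 228 cells, allows a share of up to 1.32% of cells with a count and says nothing of expression below it.

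Primary granule genes were high in some of the cells and near 0 in the others. Prtn3 (proteinase 3) was at 40.1 per 10000 (39.5 to 40.7) with a count in 75.9% of cells, and Mpo (myeloperoxidase) at 34.4 (33.9 to 35) in 65.4%. Elane (neutrophil elastase) was at 21.3 (20.9 to 21.7) in 61.4%, and Srgn, the proteoglycan that packs the proteases, at 11.4 (11.1 to 11.7). The median cell had 2.3 per 10000 of Mpo and the highest 108. The sum of Mpo, Elane, Prtn3 and Ctsg had a median of 14.7, with quartiles of 0.96 and 129.

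Secondary granule genes were spread even wider. Camp (cathelicidin) was at 101 per 10000 (100 to 102) with a count in 86.4% of cells, Ngp at 48.3 (47.7 to 49) in 66.7%, and Lyz2 (lysozyme) at 48.5 (47.9 to 49.1) in 99.6%. Lcn2 (lipocalin 2, which takes up bacterial siderophores) was at 21.3 (20.9 to 21.7), Pglyrp1 at 13.3 (12.9 to 13.6), Ltf (lactoferrin) at 12 (11.7 to 12.3) and Olfm4 at 10.9 (10.6 to 11.2). The sum of Ltf, Camp, Ngp and Lcn2 ran from 0 to 1353 with a median of 127. Ptx3 had no count in these cells.

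Genes of gelatinase granules and of late neutrophils were scarce. Wfdc21 was at 5.17 per 10000 (4.97 to 5.37) and Slpi, a protease inhibitor, at 4.21 (4.03 to 4.39), and both had counts in most cells. Retnlg (resistin-like gamma) was at 2.53 (2.39 to 2.67) in 17.5% of cells, and a single cell reached 639. Mmp8 (neutrophil collagenase) was at 1.15 (1.06 to 1.25) in 20.6% of cells and Mmp9 (gelatinase B) at 0.799 (0.722 to 0.882) in 22.8%. As means over cells, in place of pooled levels, Retnlg was at 7.31 and Mmp8 at 3.25. Of the cytokine and chemokine genes on this list, Il1b had 7 counts in all 228 cells together, Cxcl2 27 and Ccl6 188.

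Before thinning, the genes of the NADPH oxidase and of lipid mediator signalling had a count in most of the cells, with the lowest shares for Alox5 and Hvcn1. Cyba was at 15.2 per 10000 (14.8 to 15.5) in 100% of cells, Rac2 at 9.3 (9.03 to 9.57), Cybb, the catalytic subunit, at 6.39 (6.17 to 6.62) and Ncf1 at 3.55 (3.39 to 3.72). Anxa1 (annexin A1) was at 6.95 (6.72 to 7.19), Alox5ap, which presents arachidonate to 5-lipoxygenase, at 4.98 (4.78 to 5.18), Lta4h at 1.96 (1.84 to 2.09) and Ltb4r1, a receptor for leukotriene B4, at 1.76 (1.64 to 1.88). Alox5, the 5-lipoxygenase itself, was at 0.49 (0.43 to 0.556) with a count in 56.1% of cells, or 25.3% after thinning to 5000 counts. Hvcn1, the proton channel that serves the oxidase, was at 0.492 (0.431 to 0.558) in 51.8%, or 22.7% after thinning.

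Receptors were low. Itgam, the alpha chain of Mac-1, was at 1.82 per 10000 (1.7 to 1.94) in 94.7% of cells, Fcgr3 at 1.69 (1.58 to 1.81), Trem3 at 1.45 (1.34 to 1.56) and Itgb2 at 1.2 (1.11 to 1.31). Cxcr4, which retains neutrophils in the marrow, stood at 0.826 (0.747 to 0.91), Csf3r, the receptor for G-CSF, at 0.666 (0.595 to 0.742) and Cxcr2, which serves their release, at 0.5 (0.439 to 0.567).

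Among the transcription factors, Cebpe was highest with 3.53 per 10000 (3.37 to 3.7) in 86.4% of cells, followed by Spi1 (PU.1) with 3.04 (2.89 to 3.2), Cebpd with 2.09 (1.96 to 2.22) and Cebpb with 2.03 (1.9 to 2.16). Gfi1 was at 0.576 (0.51 to 0.647) in 37.7% of cells and Cebpa at 0.0881 (0.0638 to 0.119) in 14.9%. Irf8 and Klf4, which drive the monocyte fate, were at 0.654 (0.584 to 0.729) and 0.613 (0.545 to 0.686) over all cells, with most of it in few cells. Of all 88 listed genes, 51 were at 1 or more per 10000 and 55 had a count in at least 50% of cells, or 41 after thinning 225 cells to 5000 counts (3 cells were shallower).

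When the 228 cells were put in order of their S100a8 and S100a9 sum and divided into 4 groups of 57 cells, the granule genes followed in sequence. The primary sum had medians of 124, 113, 24.9 and 0.738 per 10000 from the lowest to the highest of these groups. The secondary sum went the other way, with medians of 1.2, 20.1, 335 and 575. Cells at 10 or more for the sum of Mmp8, Mmp9 and Retnlg numbered 0, 1, 10 and 21. Within the secondary genes, Camp was at 47.3 in the second group, where Ngp was at 5.86 and Ltf at 0.842, and in the highest group they were at 243, 200 and 58.7. The order is one of levels, not of time, and depth moved with it, since the median cell had 26613, 25731, 17991 and 11074 counts.

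**Figure D2:**
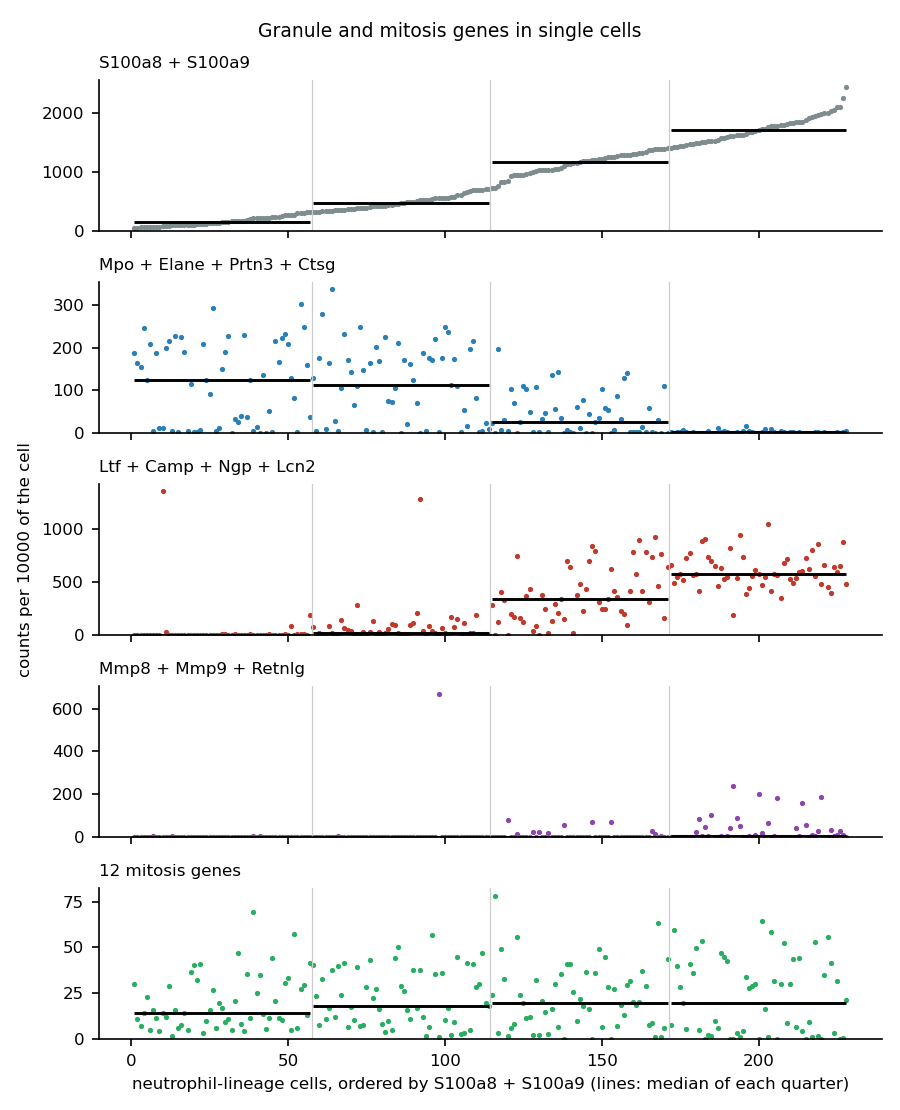
Each point is 1 of the 228 neutrophil-lineage cells, ordered on the x axis by S100a8 + S100a9, and the y axes give the sum of the named genes in counts per 10000, with the median of each of 4 groups of 57 cells as a line. The primary sum has a median of 124 in the first group and 0.738 in the last, the secondary sum 1.2 and 575, and the mitosis sum 14.2 and 19.5.

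Over the 228 cells, the genes most alike in pattern to the S100 sum among 579 genes were Cstdc4 (Spearman's rho 0.90), Stfa2l1 (0.88), Lcn2 (0.86) and Stfa3 (0.85). The most opposite were ribosomal protein genes such as Rpl41 and Rpl19 (each -0.83). The primary and secondary sums had a rho of -0.51 and the S100 sum and depth one of -0.48. All these values come from the same cells and share their total counts, so they describe the library and carry no test.

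With a limit of 10 per 10000 for each granule sum, 47 cells had primary genes only (20.6%, 15.6 to 26.5%), 74 primary and secondary (32.5%, 26.4 to 39%), 49 secondary only (21.5%, 16.3 to 27.4%), and 29 secondary and late without primary (12.7%, 8.69 to 17.8%). Primary and late genes met in 0 of 228 cells, which allows a share of up to 1.32% by the same 3 counts. Late genes without secondary ones were found in 3 cells and none of the sums in 26. These are ranges of a level, not cell types. Between 5 and 20 per 10000 lay 10 cells below and 9 above the limit for the primary sum, 9 and 9 for the secondary and 4 and 6 for the late sum.

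The ranges were set on the sums of these same genes, so the levels of Mpo, Elane, Camp, Ltf, Ngp, Mmp8, Mmp9 and Retnlg in them follow in part from the split and are a description. Mpo was at 55.9 per 10000 in the 47 cells with primary but no secondary genes, at 43.1 in the 74 with both, and at 0.237 in the 78 with secondary but no primary genes. Elane went from 33.2 and 27.7 to 0.138 in the same order. Camp was at 1.88, 131 and 233, so it was already high in the cells with both, whereas Ltf was at 0.0133, 2.21 and 53.6. Ngp went from 0.127 to 19.6 and 195, and Cstdc5 from 64.6 to 287 and 346.

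In the 32 cells with late genes, 29 of which are among those 78, Mmp8 was at 20 per 10000, Mmp9 at 12.2 and Retnlg at 46.4, against 0.04, 0 and 0.00667 in the cells with primary genes only. A single cell held 472 counts of Retnlg, and without it, an alternative chosen after seeing the data, Retnlg was at 29.2 in the late cells and at 1.56 in place of 2.53 over all cells. Ly6g had 0 counts in the cells with primary genes only and 1 in those with both, and 120 of its 121 counts were in the 78 cells with secondary but no primary genes. Cd177, another antigen of mature neutrophils, was at 0, 0.0795, 2.79 and 4.79 over the 4 ranges, and Cxcr2 at 0.16, 0.395, 1.21 and 1.69. Among the factors, Gfi1 was at 0.607, 0.903, 0.138 and 0.0767, and Cebpe at 2.26, 4.48, 4.86 and 4.03. Gfi1 was thus high where the primary genes were high, whereas Cebpe was present from the first range to the last.

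**Figure D3:**
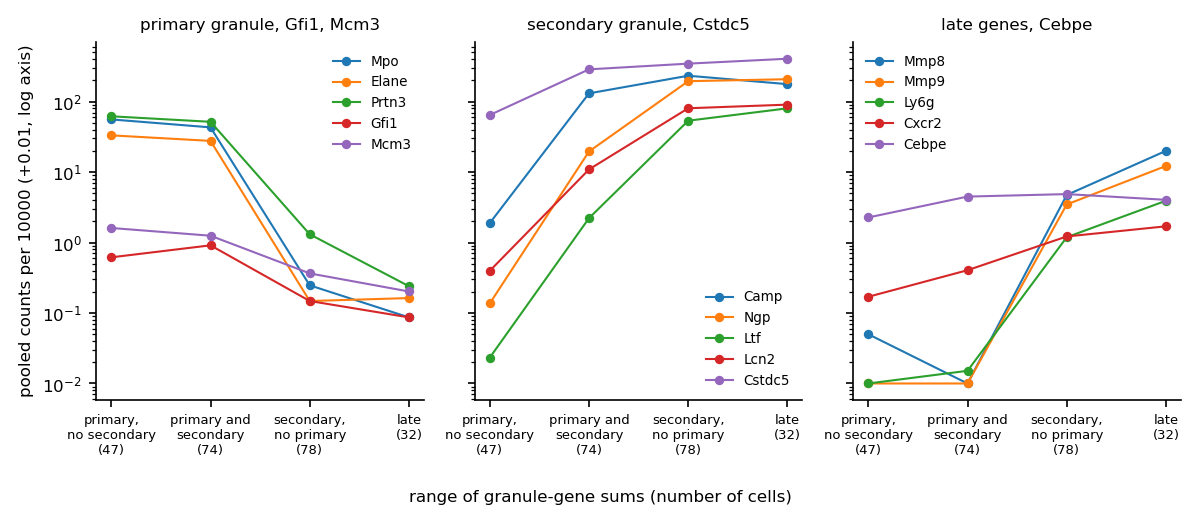
Pooled levels in counts per 10000 plus 0.01 (y, log axis) of 15 genes in the 4 ranges of granule sums (x, with the number of cells), where 29 of the 32 late cells also count among the 78 in the range before. Mpo and Elane end below 0.3, Camp, Ngp, Ltf and Lcn2 climb from the first to the third range, and Mmp8 and Mmp9 are highest in the late cells.

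Mitosis genes were low in the cells with late genes. All 4 groups of 57 cells had mitosis genes, with medians of 14.2, 17.8, 19.6 and 19.5 per 10000 for the sum of 12 genes such as Mki67 and Top2a, while the S phase sum of 11 genes was at 11.6, 12.2, 9.37 and 3.97. In the cells with secondary genes only, 39 of 49 were at 10 or more for mitosis (79.6%). In those with late genes, 6 of 32 were, with a median of 1.61 for mitosis and 2.03 for S phase. The 32 cells had a median of 7679 counts, the fewest of all ranges, and the part of depth in these values was not tested. Ribosomal protein genes, 82 in all, held 2534, 2256, 1571 and 809 of 10000 counts in the 4 groups of 57 cells.

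The 26 cells below 10 in all granule sums went against the label. In these, S100a8 was at 231 and Stfa1 at 99.5 per 10000, but Ngp at 0.151, Camp at 0.151 and Cebpe at 0.352, with no count of Ltf, Gfi1, Prss57 or Ly6g. Several monocyte genes were higher there than in the other ranges. F13a1 was at 6.41 (2.73 or less in the others), Ccr2, the receptor for the monocyte chemokine CCL2, at 5.26 in 25 of the 26 cells, Ms4a6c at 3.6, Klf4 at 3.09 and Irf8 at 2.09. Ccr2 was at 0.808 in the cells with primary genes only and at 0.0308 in those with primary and secondary genes. Most of the Klf4 and Irf8 in the class came from the 26 and the primary-only cells, and the 26 are called here only by the low granule sums. Lyz2, at 118, did not set them apart, as it was at 97.8 in the cells with secondary but no primary genes and at 122 in those with late genes.

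Against other classes of the library, set by their own rules, the neutrophil-lineage cells stood out in more than the S100 genes. The classes were 689 C1q-high cells, 97 Mpo-positive cells, 164 monocyte-type cells (Csf1r, Ccr2 and Ly6c2) and 343 globin-high cells. The primary granule genes differed in both directions from those of the Mpo-positive cells, which were chosen on 4 of these genes. The primary sum had a median of 14.7 per 10000 in the neutrophil-lineage and 60.2 in the Mpo-positive cells. Its pooled level went the other way, with 102 and 80.7 in the same order. Pooled, Mpo was at 34.4 and 41.4, Ctsg at 5.78 and 6.08 and Srgn at 11.4 and 11.9. By contrast, Prtn3 was at 40.1 and 26.3 and Elane at 21.3 and 6.89. Thinned, Prtn3 had a count in 68 and 94.8% of cells, Prss57 in 32.9 and 12.5% and Serpinb1a, an inhibitor of these proteases, in 72 and 46.9%. Cebpe was at 3.53 (3.37 to 3.7) and 0.885. Stfa1 was at 221 and 12.6. Camp was at 101 against 0.256 in the Mpo-positive, 0.244 in the monocyte-type, 0.264 in the C1q-high and 0.226 in the globin-high cells. These 4 levels were alike and are taken as the background of the library, whose source was not measured. Lyz2 was shared, with 28.1 in the monocyte-type and 15.9 in the C1q-high cells, and so was Cyba, with 12 and 22.4. With all cells thinned to 5000 counts, the neutrophil-lineage cells had a median of 1738 detected genes, against 1916 in the Mpo-positive, 1928 in the monocyte-type, 2002 in the C1q-high and 797 in the globin-high cells.

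**Figure D4:**
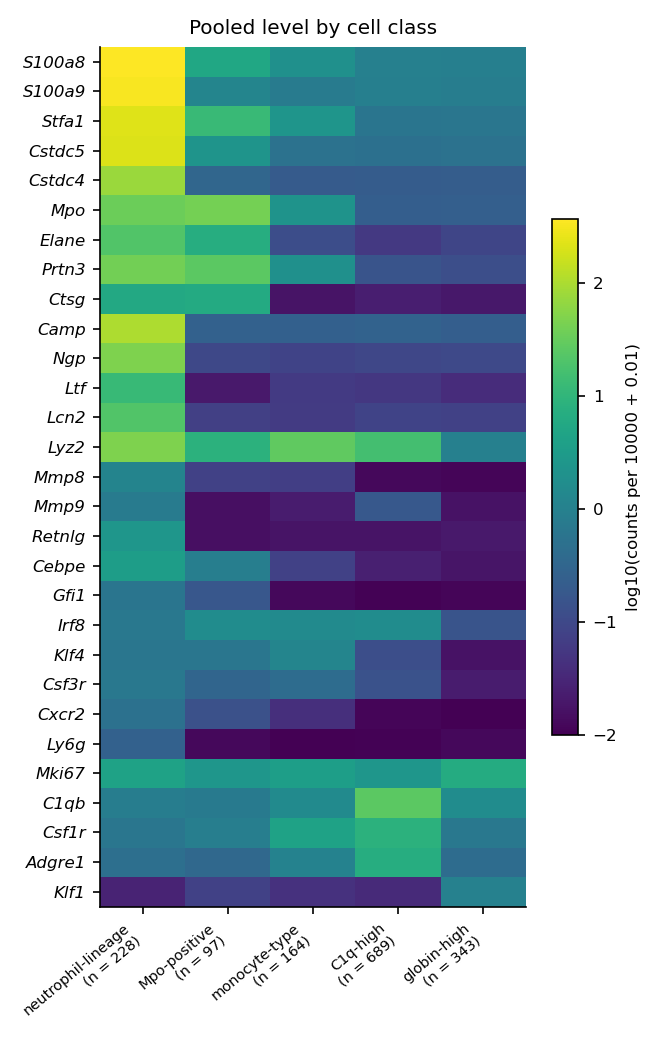
Colour gives log10 of the pooled counts per 10000 plus 0.01 for single genes (rows) in 5 classes of cells (columns, with the number of cells). Camp, Ngp, Ltf and Lcn2 are above 10 in the neutrophil-lineage column and below 0.3 in the other 4.

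The antigen by which the cells were isolated was near background at the RNA level. Adgre1, which encodes F4/80, was at 0.459 per 10000 (0.401 to 0.523) with a count in 55.3% of the neutrophil-lineage cells, against 7.1 in the C1q-high cells and 0.396 in the globin-high cells. Thinned to 5000 counts, 16% of the neutrophil-lineage cells, 13.7% of the globin-high cells and 94.1% of the C1q-high cells had a count, where the median depth before thinning was 18399, 19659 and 14945. In the monocyte-type cells the share was 38.1%. Over all neutrophil-lineage cells the share is thus read as background, but in the 26 cells below the granule limits Adgre1 was at 1.03 per 10000, with a count in 20 of them, near the 1.06 of the monocyte-type cells. Klf1 had 9 counts in the 228 cells, 0.0184 per 10000 (0.00843 to 0.035), and 0.994 in the globin-high cells.

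Markers of other cell types were found to differing extents. The sum of 7 monocyte genes was at 10 or more in 59 of the 228 cells, with a median of 4.21, a 90th percentile of 29.3 and a highest value of 59.3, against medians of 21.5 in the monocyte-type and 0.537 in the globin-high cells. The monocyte-type cells were chosen on Csf1r, Ccr2 and Ly6c2, which are among the 7, so their high values here follow in part from their rule. Ly6c2, one of the 7, is itself a leading gene of the neutrophil-lineage cells, at 4.55 per 10000 against 0.673 in the monocyte-type cells. Without it, an alternative chosen after seeing the data, the sum was at 10 or more in 39 cells, 24 of them among the 26 below the granule limits, with a median of 1.22 against 21.1 in the monocyte-type cells. Their part in the levels above was not tested. The globin sum had a median of 37.7 per 10000, against 7082 in the globin-high cells, which were chosen on that sum. The sum of 5 macrophage genes outside the rule (Adgre1, Vcam1, Cd5l, Timd4 and Mrc1) reached at most 9.48 in any of the 228 cells. Its median was 34.7 in the C1q-high cells. Cd3e, Il7r and Fcer1a had no count. At 10 or more, 3 cells held the eosinophil granule genes Epx, Prg2 and Prg3, at 222, 47.8 and 56.1, each with primary granule genes, and 1 cell held hepatoblast genes at 858, with 65851 counts and 6972 genes. The doublet caller Scrublet marked 0 of 3093 cells, so it gave no information on doublets. Without these 4 cells, an alternative chosen after seeing the data, no level of the 51 genes moved by more than 1.5 times. Without the 26 cells below the granule limits, chosen likewise, 202 cells remained. Then 1 of the 51 levels moved by more, that of Ctsc, to 0.653 of its value. The 51 are listed genes at 1 or more per 10000. Klf4 and Irf8, at lower levels, and Ccr2, not on the neutrophil lists, were not among them.

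In the bulk libraries, the genes of these cells were compared between EKLF-/- and EKLF+/+ and between EKLF/GFP+ and EKLF/GFP-, in samples that the choice of cells did not use. The genes were the 88 listed and the 19 other leading genes, 107 in all. The libraries held 10695514 to 15362161 counts on genes in the first comparison and 22721821 to 28735267 in the second. Klf1 was at 367, 298 and 362 CPM (TMM-normalized counts, scaled to the same library size) in the EKLF+/+ and 60.9, 62.8 and 58.8 in the EKLF-/- libraries, a log2 fold change of -2.53 ± 0.12 (SE, n = 3 per group, adjusted p = 7.22e-06, edgeR). It was at 35.7, 45.2 and 29.7 in EKLF/GFP- and 101, 85.7 and 86.1 in EKLF/GFP+, a change of 1.35 ± 0.16 (adjusted p = 0.000313). Replicates are described as biological triplicates, and nothing says that they came from separate embryos, so p-values measure the spread between these samples. In such libraries, fewer cells of a type and less RNA per cell cannot be told apart.

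In EKLF-/- libraries, many neutrophil genes were higher. Of the 102 genes tested, 45 were called higher (44.1%, where 9.72% of all 12753 genes tested were) and 1 lower (10.6% of all genes were), by edgeR's quasi-likelihood test at an adjusted p under 0.05. Their median log2 fold change was 0.56, against 0.02 over all genes. By role, 9 of 10 primary granule genes, 2 of 2 calprotectin genes, 5 of 5 lipid mediator genes, 4 of 7 stefins and 4 of 9 secondary granule genes rose. So did 3 of 7 NADPH oxidase genes, 6 of 21 receptors and 4 of 12 transcription factors. Of 10 gelatinase granule and late genes, Mmp8 fell and the other 9 were not called. The difference between the lists was not tested.

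Elane was at 166, 131 and 118 CPM in EKLF+/+ and 309, 1004 and 440 in EKLF-/- libraries. It rose by 2.06 ± 0.41 on the log2 scale (SE, n = 3, adjusted p = 0.0119, edgeR), the largest rise among the listed and leading genes with at least 50 normalized counts. Prss57, a serine protease of primary granules, rose by 1.67 ± 0.26 (adjusted p = 0.004), and Fcnb (ficolin B, a lectin of granules) by 1.59 ± 0.28 (adjusted p = 0.00792). All 3 EKLF-/- libraries lay above all 3 EKLF+/+ libraries for these genes.

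S100a8 was at 365, 449 and 481 CPM in EKLF+/+ and 707, 1467 and 880 in EKLF-/- libraries, S100a9 at 497, 707 and 655 and at 974, 1820 and 1194. Their log2 fold changes were 1.20 ± 0.28 (adjusted p = 0.0207) and 1.06 ± 0.26 (adjusted p = 0.0244), and that of Stfa1 was 1.08 ± 0.26 (adjusted p = 0.0238, edgeR). The groups did not overlap for these genes. Ngp, with 284, 502 and 388 against 438, 560 and 626 CPM, overlapped between the groups and passed no test (0.42 ± 0.23, adjusted p = 0.197), and Ltf had a change of 0.19 ± 0.21 (adjusted p = 0.522). Camp, by contrast, rose by 1.23 ± 0.27 (adjusted p = 0.0172).

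Mmp8 was at 29.5, 39.1 and 36 CPM in EKLF+/+ and 26.8, 19.1 and 25.7 in EKLF-/- libraries and fell by 0.60 on the log2 scale (SE 0.17, adjusted p = 0.0374, edgeR). Mmp9 had a change of -0.43 ± 0.15 that did not pass (adjusted p = 0.0762). Mpo was at 3668, 4178 and 2866 against 4195, 7269 and 4762 CPM, with no overlap and a change of 0.57 ± 0.24 that did not pass (adjusted p = 0.118). Of the factors, Gfi1 and Cebpe rose by 1.15 ± 0.30 (adjusted p = 0.0306) and 1.15 ± 0.27 (adjusted p = 0.0227), as did Cebpd and Spi1, whereas Irf8 had a change of 0.16 ± 0.13 (adjusted p = 0.362). Of the cell cycle genes, 2 of 11 for S phase fell and 2 of 12 for mitosis rose, where 10.6% of all genes fell and 9.72% rose, so little can be read from these counts.

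The count in EKLF-/- varied with the libraries used. Of the EKLF+/+ libraries, leaving out replicate 1 gave 12 higher genes, leaving out replicate 2 gave 21, and leaving out replicate 3 gave 8. Of the EKLF-/- libraries, leaving out replicate 3 gave 23. S100a8, S100a9 and Stfa1 each lost their call without any one of the EKLF+/+ replicates. Their log2 fold changes stayed positive whichever library was left out, at 0.79 to 1.42, 0.72 to 1.26 and 0.68 to 1.27. Elane, at 1.35 to 2.37, lost its call without EKLF+/+ replicate 2 or 3, and Mmp8 lost it in 5 of 13 other settings. For 42 of the 45 genes EKLF-/- replicate 2 was the highest library, and without it 43 were called. Markers of other cell types also had calls, where 10.6% of all genes were called lower and 9.72% higher. Erythroid markers fell for 3 of 5 genes tested, with sums of 6687 to 7645 CPM in EKLF+/+ and 2415 to 3466 in EKLF-/- libraries, macrophage markers fell for 3 of 8 (143 to 183 and 118 to 192 CPM) and endothelial markers for 3 of 4 (124 to 163 and 72.9 to 90.3). Eosinophil markers rose for 2 of 3 (210 to 444 and 586 to 916) and monocyte markers for 1 of 7, a share near that of all genes (515 to 592 and 639 to 780). Their part in the result was not tested. Hba-a1 was at 0 in all 6 libraries of this table.

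In EKLF/GFP+ libraries nearly all of the genes were lower. Of 103 genes tested, 100 were called lower (97.1%, where 25.8% of all 14238 genes tested were) and 0 higher (18.9% of all genes were), by edgeR's quasi-likelihood test. At an unadjusted p under 0.05 the count of higher genes was 0 as well, and DESeq2 gave 0. The median log2 fold change was -2.42, against -0.01 over all genes. Every tested gene fell among calprotectin (2), the stefins (7), primary granules (10), secondary granules (9), NADPH oxidase (7), receptors (22), lipid mediators (5) and transcription factors (12), as did 8 of 11 gelatinase granule and late genes. Adam8, Il1b and Ccl6 were the 3 without a call.

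Clec5a, a receptor that signals through DAP12, was at 36.3, 38.1 and 43.8 CPM in EKLF/GFP- and 1.16, 1.34 and 1.37 in EKLF/GFP+ libraries, and fell by 4.87 on the log2 scale (SE 0.14, n = 3, adjusted p = 3.45e-06, edgeR). Trem1, which amplifies inflammatory signals, fell by 4.52 (SE 0.47, adjusted p = 0.000155) and Elane by 4.50 (SE 0.15, adjusted p = 5.13e-06), from 274, 257 and 279 to 9.04, 12.8 and 12.4 CPM. These were the largest falls among the listed and leading genes with at least 50 normalized counts, and the groups did not overlap.

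S100a8 was at 324, 323 and 383 CPM in EKLF/GFP- and 18.8, 44.9 and 47.6 in EKLF/GFP+ libraries and fell by 3.14 on the log2 scale (SE 0.33, adjusted p = 0.000155, edgeR). Of the other markers, Ngp fell by 3.41 (SE 0.38, adjusted p = 0.000209), Ly6g by 3.32 (SE 0.51, adjusted p = 0.00108), Stfa1 by 2.76 (SE 0.38, adjusted p = 0.000647) and S100a9 by 2.17 (SE 0.32, adjusted p = 0.00091). Mpo fell by 2.56 (SE 0.11, adjusted p = 6.92e-06). EKLF/GFP+ replicate 1 was the lowest library for S100a8, S100a9, Stfa1 and Ngp, and all 3 EKLF/GFP+ libraries lay below all EKLF/GFP- libraries for each.

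**Figure D5:**
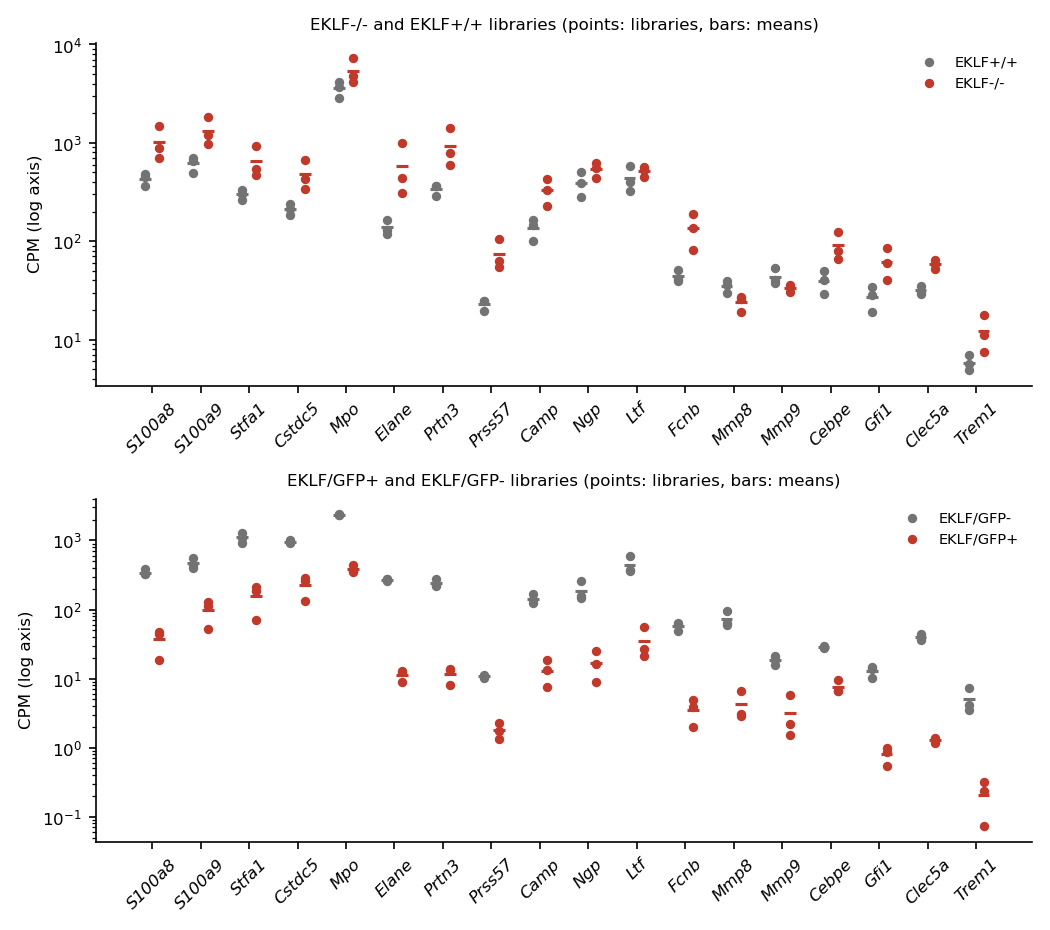
Points are the CPM of single libraries (y, log axis) and bars the means of 3 for 18 neutrophil genes (x), with EKLF-/- and EKLF+/+ above and EKLF/GFP+ and EKLF/GFP- below. Elane is at 309 to 1004 in EKLF-/- against 118 to 166 in EKLF+/+, and at 9.04 to 12.8 in EKLF/GFP+ against 257 to 279 in EKLF/GFP-, and the levels of the upper and lower panels come from different quantifications.

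Markers of other cell types also had calls in the EKLF/GFP comparison, where 25.8% of all genes were called lower and 18.9% higher. Monocyte markers fell for 7 of 7 genes (sums of 773 to 977 CPM in EKLF/GFP- and 107 to 147 in EKLF/GFP+), endothelial markers for 3 of 4 (162 to 191 and 53.5 to 86.1) and lymphoid markers for 2 of 2. Eosinophil markers rose for 3 of 4 and fell for 1, while the macrophage marker sums, of 183 to 308 and 141 to 383, overlapped. Erythroid markers rose for 7 of 7 (3507 to 4544 and 6534 to 7806) and megakaryocyte markers for 4 of 4. Cell cycle genes rose for 9 of 11 in S phase and 8 of 12 in mitosis. The study's methods name another RNA kit for the EKLF/GFP+ cells, which were few, and give their RNA a lower integrity than that of the EKLF+/+ and EKLF-/- samples. They give no integrity for EKLF/GFP-. Kit and group cannot be told apart.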

How the data were processed

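The cells and gene lists were chosen with earlier results of these data known. The single-cell file holds estimated counts per gene and cell that the authors made with Alevin against the GENCODE GRCm38 transcriptome from a Chromium V3 library. Of nonzero values, 4.29% were not whole. Levels were computed from the values as deposited, any value above 0 was taken as a count, and values were rounded only for intervals, printed counts, thinning and Scrublet. Of 3096 barcodes, 3 with fewer than 200 detected genes were left out. For EKLF+/+ and EKLF-/-, the authors deposited counts per gene from STAR alignment to mm10 and htseq-count, in which 67.22 to 72.69% of reads per library were not on genes. Of its columns, 5 repeated ones were not used. For EKLF/GFP, the authors deposited estimated counts per transcript from Salmon, of which 115898 of 116546 were summed to 35389 genes and rounded. Levels are not comparable between the 2 tables. Versions of these tools are not given in the sources used here.

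Genes with 10 or more counts in at least 3 libraries were tested with edgeR 4.0.16 (R 4.3.3) by the quasi-likelihood test after TMM normalization, each comparison on its own 6 libraries, and p-values were adjusted over every tested gene by Benjamini-Hochberg. DESeq2 1.42.0 was an alternative. In simulated data with 200 changed genes, 71.3% of 2-fold and 98.9% of 4-fold changes were recovered for EKLF-/- and 70.1% and 94.8% for EKLF/GFP, with 9 and 29 false calls. Named genes were the markers, the highest members of each list, factors and receptors needed for a role, and the 3 largest changes in each direction among called genes that averaged 50 or more normalized counts. Single-cell intervals are exact (Poisson for levels, Clopper-Pearson for shares). Promoters came from RefSeq (GRCm38.p6). Python 3.11.15, numpy 2.4.6, scipy 1.17.1, pandas 2.3.3, scanpy 1.11.5 and matplotlib 3.10.9 were used.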

Additional observations from a re-analysis of the deposited data

How the results depend on the processing

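The 228 cells became 246 with a limit of 20 for the S100 sum, 210 with 100, 213 with C1q under 5 and 234 with C1q under 20. Averaged over cells in place of pooled, 12 of 51 levels moved by more than 1.5 times. The range was from 0.576 times for Ctsg to 2.89 times for Retnlg. Mmp8 went from 1.15 to 3.25, Ltf from 12 to 23.4 and Ngp from 48.3 to 83.2, while Elane went from 21.3 to 14.1.

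For EKLF-/-, the 45 higher genes became 56 with DESeq2, 50 with no filter on low counts and 22 with an added limit of 2-fold, and 8 to 56 when 1 library was left out. The 1 lower gene became 3 with DESeq2, 2 with no filter and 0 with the 2-fold limit, and 0 to 4 when 1 library was left out. With the replicate number as a block, 48 were higher and 0 lower, and Mmp8 lost its call. Deviations of same-numbered libraries had correlations of -0.01 to 0.06, and of -0.09 to 0.03 for EKLF/GFP. Differently numbered libraries of EKLF/GFP spanned -0.16 to 0.17. With 3 libraries per group these values can neither show nor exclude a pairing. For EKLF/GFP, 92 to 100 genes were lower and 0 higher under every alternative run, and the block gave 100 and 0. Of 191 values for named genes under alternatives, 174 kept their direction and call and 17 lost the call, all 17 for EKLF-/-, and none reversed. The cause of these losses was not tested. Ly6g was not analysed here for EKLF-/-.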

Other observations

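Beside neutrophil genes, eosinophil granule genes were found in few of the 228 cells. Prg2 had a count in 8.33% of them and stood at 1.38 per 10000, and the sum of Epx, Prg2 and Prg3 was at 2.16 over all cells. The median cell was at 0, and 3 cells at 222, 47.8 and 56.1 held most of these counts. In the bulk libraries, eosinophil markers went with the neutrophil genes in EKLF-/-, where 2 of 3 rose (9.72% of all genes did), and apart from them in EKLF/GFP+, where 3 of 4 (Epx, Prg2 and Prg3) rose and Siglecf fell (18.9% of all genes rose and 25.8% fell). The difference between the comparisons was not tested.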
